A study of Mus musculus with 38 samples.

Results

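Polysome RNA of mouse embryos held in the second embryonic mitosis (two-cell M) was compared with polysome RNA of embryos held in the first (zygote M), 3 libraries against 3 of the 38 samples of the series. The libraries were chosen by their column names, which give the heavier (polysome) fraction, the stage and a replicate letter A, B or C. Both groups came from mated ICR females at least 6 weeks old, were cultured in KSOM medium, and were arrested with 10 µM nocodazole, which blocks spindle assembly by depolymerising microtubules. Both M-phase groups therefore carry the drug, and the interphase embryos set beside them below, zygote and two-cell, do not. Of 10 fractions of each sucrose gradient, the 5 heavier were pooled as polysomes and the 5 lighter as the non-polysome fraction. The treatment label of both M-phase groups reads M-phase of meiosis, while their titles name the zygote and two-cell M-phases, and the titles were followed. Cell cycle number, embryo age and time in culture change together between the groups and cannot be told apart. In bulk RNA of this kind, fewer cells of a type and less RNA per cell cannot be told apart either.

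Before the mouse embryonic genome is switched on, proteins are made from mRNAs that the oocyte stored during its growth. Most of these maternal mRNAs are destroyed between meiotic maturation and the end of the two-cell stage, when the main wave of embryonic transcription starts. An mRNA that sediments in polysomes carries several ribosomes and is read as being translated. Polysome RNA at the second mitosis thus follows genome activation and RNA at the first mitosis largely precedes it.

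Values are fragments per kilobase of gene, scaled to mapped fragments (FPKM), on which every library has a lowest value of 0.01, called the floor here. A gene was called higher or lower when the Benjamini-Hochberg adjusted p of limma was under 0.05 and the log2 fold change (two-cell M minus zygote M, nothing added to the FPKM) was beyond 1. "Rose" and "fell" are used for called genes only. Where some libraries of a group were at the floor, the fitted fold change depends on that value and sets no bound, and where all were, levels alone are given. Each group has 3 libraries, which the series describes as biological triplicates, and the spread behind the p-values was pooled over all 36 libraries of 12 groups. With the spread taken from the compared groups alone, 1031 genes were higher and 2529 lower.

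The 2 groups differed in make-up before any gene was considered. Protein-coding genes held 67.8 to 68.5% of the summed FPKM in zygote M and 38.3 to 39.4% in two-cell M. The 3 rRNA genes of the table held 0.880 to 2.43% against 5.09 to 10.7%, and unprocessed pseudogenes 2.02 to 3.91% against 17.8 to 27.4%. The leading unprocessed pseudogenes, Gm28437, Gm10925 and Gm28661, stand side by side on chromosome 1 in a nuclear copy of mitochondrial DNA, and none of the 15 mitochondrial genes listed has a row of its own. The 20 most abundant rows held 27.5 to 28.6% of FPKM in zygote M and 46.3 to 47.8% in two-cell M, and the genes above 0.1 FPKM numbered 8797 to 9543 against 6261 to 7550. From the steps between low values of single-exon genes, the fragments per library were estimated at 21000000 to 24700000 in zygote M and 11100000 to 19400000 in two-cell M, so that 1 fragment on 1 kb was worth 0.0406 to 0.0475 and 0.0515 to 0.0902 FPKM. The groups did not overlap in any of these measures, and for summed FPKM, genes detected, the share of the top 20 rows and the fragments the exact permutation p was 0.1, the smallest that 3 against 3 can give (two-sided). Their part in the gene-level results was not tested. Across genes, libraries of zygote M correlated with r from 0.841 to 0.898, those of two-cell M with r from 0.674 to 0.713, and libraries of different groups with r from 0.216 to 0.365.

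**Figure D1:**
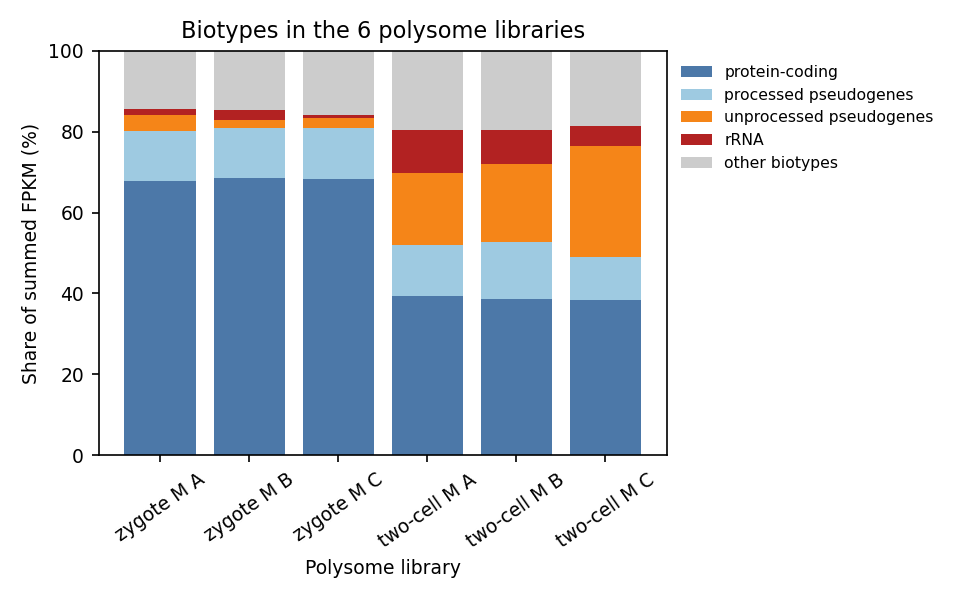
Share of summed FPKM (%, y axis) by gene biotype in the 3 zygote M and 3 two-cell M polysome libraries (x axis), each bar 1 library. Protein-coding genes fill 67.8 to 68.5% of the zygote M bars and 38.3 to 39.4% of the two-cell M bars, where unprocessed pseudogenes and rRNA take more.

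Defining genes of the oocyte and embryo were present in both groups. Of 12 such markers, 11 were at 1 FPKM or more in every zygote M library and 9 in every two-cell M library. Cumulus, oviduct, sperm and leukocyte markers were mostly at or near the floor: of 31 listed genes in the table, 2 were at 1 FPKM or more in every library of a group. These were Prm2, a sperm protamine, at 2.77, 2.96 and 1.86 FPKM in zygote M and at the floor in two-cell M, and Cd68, at 7.29, 14.2 and 4.62 FPKM in zygote M and 17.5, 0.0458 and 5.53 FPKM in two-cell M. One haemoglobin gene, Hba-a1, was at 0.208, 1.302 and 0.01 FPKM in zygote M and 22.7, 41.4 and 29.7 FPKM in two-cell M, while Hbb-bs and Hbb-bt were at the floor in all 6 libraries. Its close copy Hba-a2 was at the floor in zygote M and at 1.62, 1.06 and 0.627 FPKM in two-cell M. The part of other cells in the results was not tested.

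Of 7967 genes tested, 943 rose (11.8%) and 3177 fell (39.9%), so that 51.7% were called, and 4569 had an unadjusted p under 0.05. The median log2 fold change over all tested genes was -2.04. Under quantile normalization the median was -0.21, with 1877 higher and 2081 lower, and higher calls made up 47.4% of all calls against 22.9% as reported. With each library centred on its median, 1513 rose, 1798 fell and 45.7% of calls were higher. A scaling to equal sums over protein-coding genes, chosen after seeing the data, gave 1111 and 2675. Direction is therefore read below against the median of -2.04, and the counts of each list against the 11.8% higher and 39.9% lower of all genes tested. Quantile normalization and centring raised the median of each list described below, marker lists of other cell types aside. Quantile normalization turned an excess of lower calls into one of higher calls for elongation factors and for kinetochore, oxidative phosphorylation, proteasome, replication and splicing genes. Centring did so for these except the kinetochore list, and for cyclin, checkpoint, mitochondrial ribosomal protein and tubulin genes. Protein-coding genes were called higher in 627 of 6400 cases (9.80%) and lower in 2604 (40.7%). Processed pseudogenes were called higher in 183 of 891 cases (20.5%) and lower in 231, so that more of them fell than rose. Values of the groups did not overlap for 1312 genes with higher levels in two-cell M (16.5% of those tested) and 3456 with lower levels (43.4%), 59.8% in all. Calls depended on level: of genes whose higher group mean was under 1 FPKM, 2.61% rose and 35.1% fell, while of the 296 genes at 100 FPKM or more, 39.9% rose and 46.3% fell.

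**Figure D2:**
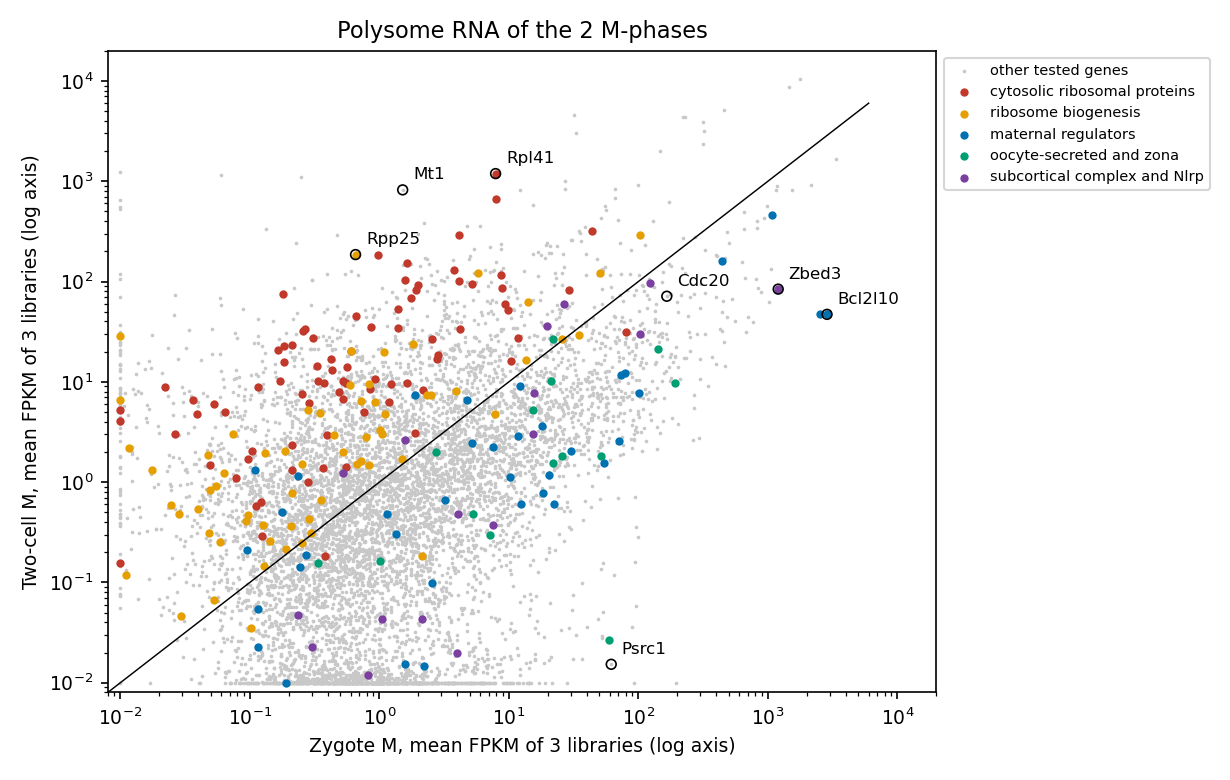
Mean FPKM of 3 libraries in zygote M (x, log axis) and two-cell M (y, log axis) for each tested gene, with list members in colour and 7 genes circled; the line marks equal levels. Most cytosolic ribosomal protein genes lie above the line, with Rpl41 at 7.90 and 1191 FPKM, and most maternal regulators below it, with Bcl2l10 at 2862 and 47.1 FPKM.

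Most tested cytosolic ribosomal protein genes rose. Cytosolic ribosomal proteins are the structural proteins of the 60S (Rpl) and 40S (Rps) subunits, and their mRNAs are known for a 5′ terminal oligopyrimidine tract, a C followed by further pyrimidines, through which mTOR signalling controls their translation. Of 48 tested large-subunit genes 36 rose, 0 fell and 12 were not called, with a median log2 fold change of 4.08. Of 35 small-subunit genes 32 rose and 1 fell, with a median of 5.50, beside a median of -2.04 and 11.8% higher over all genes. Together the large-subunit genes held 0.103 to 0.133% of each zygote M library and 1.56 to 2.35% of each two-cell M library, and the small-subunit genes 0.115 to 0.189% and 1.05 to 1.92%. Leaving out any 1 library kept the higher calls between 33 and 37 for the large and between 30 and 31 for the small subunit, and quantile normalization gave 44 and 33. Without two-cell M C 2 large-subunit genes were called lower, and with the 18 polysome libraries alone 1 was.

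Rpl41 encodes the shortest ribosomal protein and was the most abundant ribosomal protein mRNA of two-cell M (chromosome 10, 128548114 to 128549305, minus strand, GRCm38). It was at 5.81, 12.7 and 5.16 FPKM in zygote M and 1694, 1152 and 729 FPKM in two-cell M (log2 fold change 7.28 ± 0.51 SE, adjusted p = 1.05e-11). The lowest two-cell M library lay far above the highest zygote M library. Rplp1 and Rplp0 encode parts of the acidic stalk of the 60S subunit, which recruits elongation factors. Rplp1 (chromosome 9, 61913284 to 61914542, minus strand) was at 5.93, 4.44 and 1.99 FPKM in zygote M and 285, 355 and 236 FPKM in two-cell M (log2 fold change 6.26 ± 0.56 SE, adjusted p = 7.17e-10). Rplp0 (chromosome 5, 115559467 to 115563727, plus strand), which was already at an intermediate level in zygote M, was at 40.5, 49.9996 and 41.2 FPKM in zygote M and 223, 225 and 518 FPKM in two-cell M (log2 fold change 2.76 ± 0.32 SE, adjusted p = 6.85e-08). In both genes the groups were apart, and the rise of Rplp0 was the smaller.

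On the small subunit, Rps29 (chromosome 12, 69157722 to 69159186, minus strand) was at 1.13, 1.31 and 0.508 FPKM in zygote M and 255, 202 and 99.3 FPKM in two-cell M (log2 fold change 7.57 ± 0.55 SE, adjusted p = 1.56e-11). Rps15 (chromosome 10, 80292453 to 80294114, plus strand) was at 1.06, 2.201 and 1.64 FPKM in zygote M and 133, 216 and 112 FPKM in two-cell M (log2 fold change 6.56 ± 0.83 SE, adjusted p = 3.92e-07). Rps27rt, an intronless copy of Rps27 whose reads cannot be told from those of its parent by symbol alone, was at 2.28, 21.3 and 0.443 FPKM in zygote M and 1019.6, 742 and 243 FPKM in two-cell M (log2 fold change 7.67 ± 1.68 SE, adjusted p = 4.48e-04). All 3 genes separated the groups completely. Rps6, whose protein is the substrate of the mTOR effector S6 kinase, was at 0.428, 0.189 and 0.382 FPKM in zygote M and 8.01, 10.7 and 11.7 FPKM in two-cell M (log2 fold change 4.99 ± 0.71 SE, adjusted p = 2.10e-06). Rpl35, named in the study's own text, was at 0.462, 1.19 and 0.6404 FPKM in zygote M and 3.73, 5.95 and 5.31 FPKM in two-cell M (log2 fold change 2.79 ± 0.62 SE, adjusted p = 5.22e-04), a low level in both groups with no overlap. The exception was Rps27l, a relative of Rps27, at 84.4, 96.9 and 58.9 FPKM in zygote M and 35.2, 23.9 and 34.8 FPKM in two-cell M (log2 fold change -1.35 ± 0.39 SE, adjusted p = 0.00566), a fall that was not called under quantile normalization and turned to 0.23 with libraries centred on their median.

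Ribosomal protein genes have many processed pseudogenes with near-identical sequence, and how the authors divided shared reads is not given in the sources used here, so the levels of single members are uncertain. Their mRNAs are also short. The length used here is that of the longest annotated transcript of a gene, which can exceed that of its mRNA in the embryo. The bins therefore do not match mRNA lengths. Among other protein-coding genes with a length of up to 500 bases the median log2 fold change was 1.04 (41 genes, 12 higher and 9 lower). It was -0.51 from 500 to 750 bases, -1.62 from 750 to 1000, -1.94 from 1000 to 1500 and -2.59 from 1500 to 2000. In longer genes it was -2.45 from 2000 to 3000 bases, -2.23 from 3000 to 5000 and -2.02 above 5000. In the bins up to 1000 bases the ribosomal protein genes had medians of 6.92 (6 genes), 5.47 (14 genes) and 2.78 (18 genes), with 6, 13 and 14 of them higher. Their median was 4.84 from 1000 to 1500 bases (23 genes, 20 higher) and 3.69 from 1500 to 2000 (10 genes, 6 higher). It was 5.04 from 2000 to 3000 bases (7 genes, 5 higher) and 6.85 from 3000 to 5000 (3 genes, 3 higher). The 1 gene above 5000 bases had a log2 fold change of 2.97 and rose. The part of length in the rise was not tested.

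Start sites of ribosomal protein genes are shown because their mRNAs are known for the oligopyrimidine tract, and nothing is read from its presence about the changes. For 62 of the 83 tested genes a RefSeq start on GRCm38.p6 was matched. A run was searched on the transcribed strand from 10 bases before to 20 bases after the annotated start, as a C followed without a break by at least 4 bases that are C or T. It was found in 41 of the 62 (66.1%) and in 35.8% of 27025 promoters of the same length, and a run of 8 or more in 22 (35.5%) and 8.63%. Among the 51 matched genes that rose, 32 held a run (62.7%). Of all matched protein-coding genes that rose or fell 37.3% and 37.2% did. In the windows below capitals mark the longest such run, and the annotated start follows the first 10 bases.
Rpl35, chr2:39005112-39005141, minus strand: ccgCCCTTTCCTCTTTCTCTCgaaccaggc
Rps6, chr4:86857348-86857377, minus strand: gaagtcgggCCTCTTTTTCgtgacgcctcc
Rplp0, chr5:115559457-115559486, plus strand: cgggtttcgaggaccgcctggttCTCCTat
Eef2, chr10:81176621-81176650, plus strand: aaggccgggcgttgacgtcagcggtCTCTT
Rpl41, chr10:128549149-128549178, minus strand: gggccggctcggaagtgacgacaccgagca
Rps15, chr10:80292421-80292450, plus strand: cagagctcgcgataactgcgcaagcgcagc
Rps27l, chr9:66946076-66946105, plus strand: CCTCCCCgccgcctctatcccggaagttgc
Tcl1, chr12:105222718-105222747, minus strand: gataaatagacgcgtttctcatgctcaccg
Rpl35 and Rps6 hold runs of 18 and 10 bases and rose by 2.79 and 4.99 on the log2 scale, and Rplp0 and the elongation factor Eef2, which also rose, hold runs of 5 bases inside the transcript. Tcl1, a maternal transcript with a log2 fold change of -6.02, holds none in this window. Rpl41 and Rps15, which rose by 7.28 and 6.56, hold none either. Rps27l, which fell, holds 7 bases ahead of the start and 5 inside the transcript. The RefSeq starts of Rpl35, Rps6, Rpl41 and Tcl1 lie inside the gene as the deposited coordinates place it, which reach further upstream, and that of Rps15 lies outside it. A match describes the letters at an annotated start and says nothing of which start the embryo used.

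Ribosome biogenesis genes encode the RNA polymerase I machinery and the nucleolar proteins that cut, modify and assemble pre-rRNA. Of 65 tested 24 rose, 1 fell and 40 were not called, with a median log2 fold change of 2.13. Their summed share went from 0.254 to 0.270% in zygote M to 0.717 to 0.948% in two-cell M. Leaving out 1 library gave 21 to 24 higher calls, and quantile normalization 48. Rpp25, a protein subunit of RNase P and RNase MRP, the enzymes that cut tRNA precursors and pre-rRNA, showed one of the largest rises of all genes (chromosome 9, 57504026 to 57505448, plus strand). It was at 0.01, 1.94 and 0.01 FPKM in zygote M and 183, 201 and 173 FPKM in two-cell M (log2 fold change 11.64 ± 1.47 SE, adjusted p = 3.54e-07). Nop16, a nucleolar protein of 60S assembly, was listed at the floor in every zygote M library and at 30.6, 24.2 and 30.3 FPKM in two-cell M. Imp3, a component of the U3 small nucleolar ribonucleoprotein, was abundant in both groups at 115, 92.9 and 104 FPKM in zygote M and 179, 296 and 391 FPKM in two-cell M (log2 fold change 1.41 ± 0.35 SE, adjusted p = 0.00141). Nop10, of the H/ACA complexes that guide pseudouridylation, was at 55.7, 52.4 and 44.7 FPKM in zygote M and 109, 142 and 115 FPKM in two-cell M (log2 fold change 1.26 ± 0.37 SE, adjusted p = 0.00639), and scaling to equal sums of FPKM took it below 2-fold. Nip7, a 60S assembly factor named in the study's text, was at 15.2, 14.3 and 12.8 FPKM in zygote M and 64.1, 56.1 and 65.9 FPKM in two-cell M (log2 fold change 2.14 ± 0.44 SE, adjusted p = 2.47e-04). Within this list the changes thus ran from small ones in abundant members to gains from the floor. The 1 member that fell was Npm3, a nucleoplasmin, at 0.888, 2.97 and 2.58 FPKM in zygote M and 0.01, 0.0474 and 0.495 FPKM in two-cell M (log2 fold change -4.94 ± 1.21 SE, adjusted p = 0.00133). Ncl and Npm1, the major nucleolar proteins, rose from 0.08197, 0.104 and 0.0927 FPKM to 0.248, 0.695 and 0.280 FPKM and from 0.983, 0.517 and 0.873 FPKM to 2.90, 3.26 and 2.24 FPKM, with adjusted p = 0.0468 and 0.0292, and were named after their values were seen.

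Translation factors moved less uniformly. Initiation factors bring the ribosome to the mRNA, and of 43 tested 13 rose and 3 fell (median 1.34), with 8 to 11 higher calls when 1 library was left out, 8 of them without zygote M A or without zygote M C. Quantile normalization and centring each gave 25. The summed share of the list was lower in two-cell M, at 0.533 to 0.667%, than in zygote M, at 0.836 to 1.01%. Eif1b, described below, held 36.2% of the zygote M sum but 2.2% of that of two-cell M, and without it the list summed to 659 and 793 FPKM. These are sums and not shares, as whole libraries summed to a mean of 109717 FPKM in zygote M and 134307 FPKM in two-cell M. Eef2, the elongation factor that moves the ribosome along the mRNA, was at 24.2, 22.2 and 23.2 FPKM in zygote M and 113, 87.6 and 122 FPKM in two-cell M (log2 fold change 2.20 ± 0.62 SE, adjusted p = 0.00422). Eif6, which keeps free 60S subunits from joining, was at 101, 138 and 99.3 FPKM in zygote M and 189, 242 and 256 FPKM in two-cell M (log2 fold change 1.03 ± 0.33 SE, adjusted p = 0.0119). The call was lost without zygote M A, zygote M C, two-cell M B or two-cell M C, where the fold change was 0.94 to 0.98. Eif1b, a start codon selection factor, went the other way at 361, 343 and 415 FPKM in zygote M and 5.77, 2.59 and 45.04 FPKM in two-cell M (log2 fold change -5.41 ± 0.66 SE, adjusted p = 1.87e-07). Of 17 elongation and termination factors 4 rose and 5 fell (median -0.02, but 0.80 under quantile normalization, 1.55 when centred and 0.51 with equal protein-coding sums), with 3 lower calls without zygote M A, zygote M C or two-cell M A. Eef1g and Etf1, the factor that reads stop codons, rose to 1.76, 2.51 and 3.01 FPKM and to 3.90, 3.70 and 2.21 FPKM, both low levels. Eef2k, the kinase that inhibits Eef2, fell, at 11.8, 9.98 and 15.6 FPKM in zygote M and 1.43, 0.0164 and 0.938 FPKM in two-cell M (log2 fold change -5.45 ± 1.19 SE, adjusted p = 4.32e-04). Genes of mTOR and MAPK signalling fell in 12 of 28 cases (42.9%, against 39.9% of all genes) and rose in 1, Rps6 itself (median -2.63), with 6 to 13 lower calls when 1 library was left out, 6 without two-cell M B and 7 without two-cell M A. Quantile normalization left 6 lower calls, as did 1 FPKM added, and centring 3 lower beside 2 higher. Mapk3, the ERK1 kinase, was at 157, 212 and 159.9 FPKM in zygote M and 8.89, 3.07 and 40.6 FPKM in two-cell M (log2 fold change -4.07 ± 0.92 SE, adjusted p = 6.45e-04). Lamtor2, of the lysosomal scaffold that activates mTOR, was at 25.7, 32.2 and 23.9 FPKM in zygote M and 0.0574, 0.394 and 2.28 FPKM in two-cell M (log2 fold change -6.18 ± 0.74 SE, adjusted p = 1.55e-07).

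**Figure D3:**
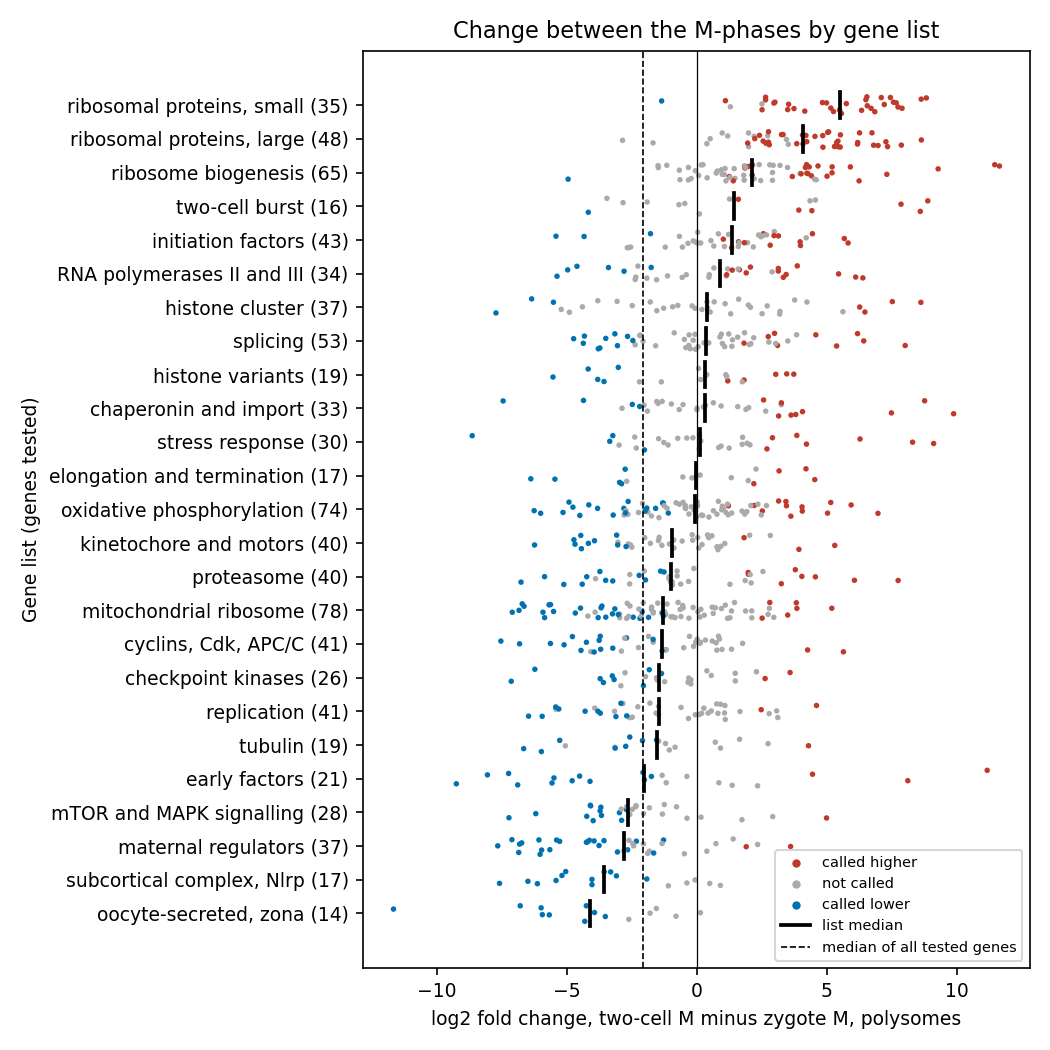
Log2 fold change in polysomes, two-cell M minus zygote M (x axis), of each tested member (points, coloured by call) of the gene lists other than marker lists (y axis, number tested in brackets), with the list median as a bar and the median of all genes, -2.04, as a dashed line. Both cytosolic ribosomal protein lists sit at the top with medians of 5.50 and 4.08 and the oocyte-secreted list at the bottom with -4.08.

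Mitochondrial and other housekeeping complexes held members that rose and members that fell, and their lower calls were all under the 39.9% of all genes. Mitochondrial ribosomal protein genes, which serve a separate ribosome, rose in 6 (7.69%) and fell in 24 (30.8%) of 78 cases (median -1.30), against 68 of 83 for the cytosolic ones that rose, and the lower calls without 1 library ranged from 17, without zygote M A, to 26. Mrpl34 was at 18.8, 31.4 and 28.03 FPKM in zygote M and 159.6, 261 and 138 FPKM in two-cell M (log2 fold change 2.81 ± 0.42 SE, adjusted p = 3.47e-06). Mrpl18 was at 32.6, 29.4 and 21.2 FPKM in zygote M and 5.43, 5.91 and 6.84 FPKM in two-cell M (log2 fold change -2.18 ± 0.65 SE, adjusted p = 0.00642). Of 74 oxidative phosphorylation genes 13 rose (17.6%) and 18 fell (24.3%). Their median was -0.07, but 1.08 under quantile normalization, 1.51 when centred and 0.46 with equal protein-coding sums, with 9 lower calls without two-cell M A, 11 without zygote M A and 20 without two-cell M C. Uqcrq, a subunit of complex III, was at 4.65, 6.66 and 3.61 FPKM in zygote M and 222, 205 and 112 FPKM in two-cell M (log2 fold change 5.16 ± 0.48 SE, adjusted p = 1.81e-09). Cox8a, a subunit of cytochrome oxidase, was at 576, 874 and 458 FPKM in zygote M and 139, 183 and 147 FPKM in two-cell M (log2 fold change -1.98 ± 0.40 SE, adjusted p = 2.06e-04). Genes of RNA polymerases II and III and their general factors rose in 13 (38.2%) and fell in 6 (17.6%) of 34 cases (median 0.90). Polr2i, a small subunit of polymerase II, was at 10.8, 11.9 and 9.87 FPKM in zygote M and 42.7, 25.7 and 35.2 FPKM in two-cell M (log2 fold change 1.65 ± 0.54 SE, adjusted p = 0.0127). Polr2c, of its core assembly, was at 50.9, 68.5 and 48.9 FPKM in zygote M and 5.15, 7.77 and 12.9 FPKM in two-cell M (log2 fold change -2.79 ± 0.40 SE, adjusted p = 2.67e-06). Elob, the elongin B subunit, was at 0.248, 0.987 and 0.2602 FPKM in zygote M and 25.05, 34.3 and 24.6 FPKM in two-cell M (log2 fold change 6.11 ± 0.69 SE, adjusted p = 5.54e-08). Its oocyte-specific relative Elobl, named after its values were seen, was at 473, 459.8 and 530.1 FPKM in zygote M and 59.2, 21.6 and 52.6 FPKM in two-cell M (log2 fold change -3.58 ± 0.32 SE, adjusted p = 7.02e-10). The study writes Elob1 and ELOBL, of which Elob1 had been read here as Elob, and the 2 relatives changed in opposite directions. Splicing genes rose in 9 (17%) and fell in 11 (20.8%) of 53 (median 0.36, and -0.04 under a stricter filter of 1 FPKM), with 7 lower calls without two-cell M A. Quantile normalization gave 25 higher and 6 lower (median 2.25) and centring 17 and 0 (median 1.94). Of the members that rose, Snrpd2, a core Sm protein, was at 0.913, 0.199 and 0.296 FPKM in zygote M and 29.5, 28.9 and 39.97 FPKM in two-cell M. Phf5a, of the SF3b complex, was at 98.6, 86.9 and 84.6 FPKM in zygote M and 24.4, 18.9 and 17.2 FPKM in two-cell M. Proteasome genes rose in 8 (20%) and fell in 12 (30%) of 40 (median -0.97), with 6 lower calls without two-cell M A, 7 without zygote M A and 5 higher calls without two-cell M C, and chaperonin and mitochondrial import genes rose in 9 (27.3%) and fell in 4 (12.1%) of 33 (median 0.34, 6 lower without two-cell M A and 7 without two-cell M C). Among these, Tomm5, of the outer membrane import pore, was at 0.0913, 0.01 and 0.163 FPKM in zygote M and 62.97, 67.7 and 29.3 FPKM in two-cell M (log2 fold change 9.88 ± 1.15 SE, adjusted p = 8.71e-08). The medians of mitochondrial ribosomal proteins and of the proteasome turned positive under quantile normalization (0.08 and 0.37) and under centring (0.27 and 0.61).

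Metallothioneins bind zinc and copper and are induced through the metal-sensing factor Mtf1. Mt1 (chromosome 8, 94179082 to 94180327, plus strand) was at 1.68, 1.88 and 0.985 FPKM in zygote M and 1014, 786 and 659.7 FPKM in two-cell M (log2 fold change 9.11 ± 0.72 SE, adjusted p = 9.52e-11). Its neighbour Mt2 (chromosome 8, 94172664 to 94173568, plus strand) was at 1.79, 1.16 and 0.347 FPKM in zygote M and 383, 216 and 275 FPKM in two-cell M (log2 fold change 8.30 ± 1.21 SE, adjusted p = 3.03e-06). In both genes the zygote M libraries were all under 2 FPKM and the two-cell M libraries far above them. Mt1 was at 1.17 ± 0.666 FPKM in GV oocytes, 1.59 ± 1.21 FPKM in MII oocytes and 0.422 ± 0.429 FPKM in interphase zygotes (mean ± SD, n = 3), and at 277 ± 66.1 FPKM in interphase two-cell embryos. Gadd45b, a stress-induced regulator of the cell cycle and of DNA demethylation, was at 0.276, 1.17 and 3.26 FPKM in zygote M and 57.4, 83.7 and 103 FPKM in two-cell M (log2 fold change 6.28 ± 0.85 SE, adjusted p = 1.06e-06). The whole stress list rose in 7 and fell in 4 of 30 cases (median 0.14), with 4 to 6 higher calls when 1 library was left out, 4 without zygote M A, zygote M C or two-cell M B. Its median had no stable sign, at -0.15 with libraries scaled to equal sums of FPKM, 2.09 under quantile normalization and 1.71 when centred. It was 1.47 without two-cell M A, -0.18 without two-cell M B and -0.26 without two-cell M C. Ddit4, an inhibitor of mTOR that stress induces, was at 56.6, 90.5 and 43.5 FPKM in zygote M and 2.67, 12.5 and 8.199 FPKM in two-cell M (log2 fold change -3.22 ± 0.69 SE, adjusted p = 3.82e-04). The heat shock factor Hsf1 was at 18.2, 24.8 and 18.4 FPKM in zygote M and 3.46, 3.82 and 9.67 FPKM in two-cell M (log2 fold change -2.01 ± 0.60 SE, adjusted p = 0.00639). The 3 most abundant members that rose were thus metallothioneins and a growth-arrest gene, while these 2 stress genes fell.

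The 3 lists of maternal transcripts had larger shares of lower calls than the 39.9% of all genes, a difference given as a description with no test. Of 14 oocyte-secreted and zona genes 9 fell (64.3%) and 0 rose (median -4.08, against -2.04 over all genes). Of 17 genes of the subcortical maternal complex and the Nlrp family 12 fell (70.6%) and 0 rose (median -3.55), and of 37 maternal regulators 22 fell (59.5%) and 2 rose (median -2.80). All 3 medians stayed negative under each scaling tried, but the counts of lower calls shrank under some settings, in the lists as over all genes. Centring left 6 lower calls and 1 higher in the subcortical list, 15 lower among the regulators and 7 among the oocyte-secreted genes, and adding 1 FPKM left 7 in the subcortical list. Over all 7967 genes tested, the lower calls went from 3177 to 1798 with centring and to 2024 with 1 FPKM added. The summed share of the maternal regulators was 6.33 to 7.37% of zygote M and 0.392 to 0.868% of two-cell M, and Bcl2l10, Tcl1 and Omt2b held 86.5% and 69.5% of the summed FPKM. Bcl2l10, an anti-apoptotic member of the Bcl2 family expressed in oocytes, was among the 20 most abundant rows of zygote M (chromosome 9, 75347758 to 75351632, plus strand). It was at 3181, 2499 and 2905 FPKM in zygote M and 18.99, 7.03 and 115 FPKM in two-cell M (log2 fold change -6.84 ± 0.58 SE, adjusted p = 2.76e-10). Tcl1, a co-activator of the Akt kinase, was at 2701, 2245 and 2656 FPKM in zygote M and 21.8, 29.9 and 90.3 FPKM in two-cell M (log2 fold change -6.02 ± 0.56 SE, adjusted p = 1.97e-09). In both genes the 3 zygote M libraries lay close together while those of two-cell M spread widely, with C the highest. Omt2b, an oocyte maturation gene, remained abundant at 1128, 1374 and 719 FPKM in zygote M and 304, 371 and 699 FPKM in two-cell M (log2 fold change -1.27 ± 0.39 SE, adjusted p = 0.00738), was not called without two-cell M A, where the fold change was -1.02, and turned to 0.30 with libraries centred on their median. The 2 regulators that rose, Cnot8 and Pan3, are subunits of the complexes that shorten poly(A) tails. Pan3 was at 0.0987, 0.149 and 0.0832 FPKM in zygote M and 1.07, 1.62 and 1.29 FPKM in two-cell M (log2 fold change 3.61 ± 0.80 SE, adjusted p = 5.33e-04). Cnot8 was at 1.51, 2.01 and 2.13 FPKM in zygote M and 4.802, 6.72 and 10.5 FPKM in two-cell M (log2 fold change 1.91 ± 0.78 SE, adjusted p = 0.0425), a call lost when any library but two-cell M A was left out (1.61 to 2.00).

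In the subcortical maternal complex, a cytoplasmic lattice that embryos need to pass the two-cell stage, Zbed3 was at 1132, 1304 and 1168 FPKM in zygote M and 75.3, 38.4 and 138 FPKM in two-cell M (log2 fold change -4.02 ± 0.42 SE, adjusted p = 1.41e-08). Ooep was at 113, 95.5 and 101 FPKM in zygote M and 19.4, 20.99 and 49.6 FPKM in two-cell M (log2 fold change -1.92 ± 0.42 SE, adjusted p = 4.21e-04). Khdc3 was at 11.4, 27.4 and 8.04 FPKM in zygote M and 0.01, 0.143 and 23.05 FPKM in two-cell M (log2 fold change -5.41 ± 1.60 SE, adjusted p = 0.00625), where two-cell M C reached the zygote M range, and the call was lost without two-cell M A (-2.90). Padi6, Tle6 and Nlrp5 of the same complex were not called. Padi6 was at 16.9, 25.04 and 17.3 FPKM in zygote M and 21.3, 13.5 and 72.6 FPKM in two-cell M. Tle6 was at 22.2, 34.5 and 22.7 FPKM in zygote M and 41.9, 24.2 and 115 FPKM in two-cell M, and in both two-cell M C was the highest library. Among the growth factors that the oocyte secretes, Bmp15 was at 204, 81.3 and 286 FPKM in zygote M and 15.7, 5.203 and 8.57 FPKM in two-cell M (log2 fold change -4.24 ± 0.67 SE, adjusted p = 8.97e-06). Gdf9 was at 153, 122 and 151 FPKM in zygote M and 13.9, 2.89 and 47.1 FPKM in two-cell M (log2 fold change -3.51 ± 0.73 SE, adjusted p = 2.45e-04). Rln3, a relaxin peptide, went from 53.8, 68.3 and 54.3 FPKM to 0.0596, 0.01 and 0.01 FPKM (log2 fold change -11.65 ± 0.71 SE, adjusted p = 5.26e-13). In all 3 genes the groups did not overlap, and two-cell M was near the floor in Rln3. H1foo, the linker histone of the oocyte, was at 119, 49.9 and 68.3 FPKM in zygote M and 1.83, 4.44 and 30.2 FPKM in two-cell M (log2 fold change -3.56 ± 0.68 SE, adjusted p = 1.00e-04). Mos, the kinase that holds meiotic metaphase, had been at 1796 ± 310.4 FPKM in MII oocytes (mean ± SD, n = 3) and was not called between the mitoses, at 13.2, 7.74 and 15.6 FPKM in zygote M and 12.2, 0.202 and 14.7 FPKM in two-cell M (log2 fold change -1.82 ± 1.44 SE, adjusted p = 0.298). Its sign rested on two-cell M B, without which the fold change was 0.20.

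Embryonic transcripts gave a mixed picture. The list of genes known for a burst of transcription in two-cell embryos holds the Zscan4, Tcstv, Usp17l and Tdpoz families, near-identical copies whose reads the counting could split. Of its 44 genes 39 are in the table and 16 passed the filter on low values, of which 6 rose and 1 fell, with 0 to 4 lower calls when 1 library was left out, and 15 of the 39 were at the floor in every zygote M library. A member could pass that filter through its level in a single stage, so this count describes the tested members alone. AF067061 was at 0.582, 0.01 and 0.0389 FPKM in zygote M and 6.297, 13.6 and 33.1 FPKM in two-cell M (log2 fold change 7.86 ± 1.66 SE, adjusted p = 3.03e-04). Tmem92 was at 0.423, 1.72 and 0.748 FPKM in zygote M and 14.4, 8.36 and 15.96 FPKM in two-cell M (log2 fold change 3.93 ± 1.02 SE, adjusted p = 0.00211). Gm5662 and Gm4027 were at the floor in zygote M and at 1.08, 4.02 and 13.5 FPKM and 2.26, 4.24 and 11.1 FPKM in two-cell M. Tcstv1 was at 158, 74.4 and 165 FPKM in zygote M and 0.759, 32.7 and 59.9 FPKM in two-cell M, with lower levels in each two-cell M library and no call (log2 fold change -3.45 ± 1.53 SE, adjusted p = 0.0605). With Tcstv1, Tcstv3 and Sp110 at 96.7% of it in zygote M, the summed level of the list was 110.7 to 220.1 FPKM in zygote M and 63.3 to 289.6 FPKM in two-cell M, so the groups overlapped, and two-cell M spread widely. More members reached 1 FPKM in every interphase two-cell library, 18, than in every two-cell M library, 7.

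Of 21 tested early transcription factors and chromatin regulators 3 rose and 12 fell (57.1%, median -2.01, close to that of all genes). Obox8, of a homeobox family active at genome activation, was at the floor in zygote M and at 31.9, 13.1 and 29.3 FPKM in two-cell M, while its relative Obox5, a maternal transcript, was at 122, 47.4 and 105 FPKM in zygote M and 1.94, 0.3401 and 10.2 FPKM in two-cell M (log2 fold change -5.49 ± 1.01 SE, adjusted p = 6.82e-05). Dppa4, a chromatin factor of pluripotent cells, was at 0.01, 0.01 and 0.201 FPKM in zygote M and 10.9, 7.596 and 5.24 FPKM in two-cell M (log2 fold change 8.12 ± 1.46 SE, adjusted p = 4.99e-05). Trim28, a corepressor that silences retroelements, was at 0.177, 0.337 and 0.219 FPKM in zygote M and 4.01, 4.59 and 7.52 FPKM in two-cell M (log2 fold change 4.46 ± 1.33 SE, adjusted p = 0.00662). Pou5f1, the pluripotency factor Oct4, was at 144, 179.5 and 301 FPKM in zygote M and 5.299, 0.535 and 26.1 FPKM in two-cell M (log2 fold change -5.56 ± 1.23 SE, adjusted p = 4.93e-04). Klf17 was at 162, 123 and 212 FPKM in zygote M and 43.003, 37.1 and 36.3 FPKM in two-cell M (log2 fold change -2.06 ± 0.42 SE, adjusted p = 2.34e-04). Members of one family thus moved in opposite directions.

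Cell cycle lists were called lower in 24.4 to 42.1% of their tested members, beside 39.9% of all genes, with replication and kinetochore genes at the low end. Cyclins, Cdk subunits and genes of the anaphase-promoting complex fell in 16 (39%) and rose in 2 of 41 cases (median -1.33), and their summed share was 2.54 to 3.53% of zygote M and 0.259 to 0.344% of two-cell M. Pttg1, the securin that holds sister chromatids together until anaphase, held 76% of the summed FPKM of the list in zygote M, against 33.2% of that in two-cell M (chromosome 11, 43420250 to 43426251, minus strand). It was at 2939, 2166 and 2846 FPKM in zygote M and 85.97, 99.01 and 206 FPKM in two-cell M (log2 fold change -4.45 ± 0.37 SE, adjusted p = 2.05e-10). Cks1b, a small Cdk-binding protein, was at 388, 270.2 and 324 FPKM in zygote M and 15.6, 17.3 and 56.5 FPKM in two-cell M (log2 fold change -3.71 ± 0.36 SE, adjusted p = 4.62e-09). Cdc20, the activator of the anaphase-promoting complex, was at 214, 111 and 172 FPKM in zygote M and 82.9, 56.8 and 74.3 FPKM in two-cell M (log2 fold change -1.18 ± 0.36 SE, adjusted p = 0.00765). The call was lost without zygote M A (-0.97) and under quantile normalization (-0.96), and centring turned it to 0.39. Ccne1, the cyclin of S-phase entry, rose from a low level, at 0.0545, 0.646 and 0.201 FPKM in zygote M and 5.9005, 8.96 and 16.7 FPKM in two-cell M (log2 fold change 5.64 ± 1.42 SE, adjusted p = 0.00171). The other member that rose, Cdc25c, was at 0.117, 0.0228 and 0.0166 FPKM in zygote M and 0.154, 0.931 and 2.196 FPKM in two-cell M, and lost its call without zygote M B, zygote M C, two-cell M B or two-cell M C (3.42 to 4.04).

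Mitotic kinases and checkpoint genes fell in 9 (34.6%) and rose in 2 of 26 cases (median -1.43), with 6 lower calls without zygote M A or zygote M C. Centring gave 4 higher and 3 lower. Birc5, the survivin subunit of the chromosomal passenger complex, was at 185, 133 and 169.9 FPKM in zygote M and 8.29, 14.3 and 15.8 FPKM in two-cell M (log2 fold change -3.71 ± 0.36 SE, adjusted p = 4.09e-09). Plk1 was at 37.9, 38.02 and 53.7 FPKM in zygote M and 4.23, 13.2 and 19.8 FPKM in two-cell M (log2 fold change -2.04 ± 0.76 SE, adjusted p = 0.0262), and lost its call without zygote M C (-1.88) or two-cell M A (-1.40). Plk4, the kinase that starts centriole duplication, was at 6.79, 2.44 and 4.46 FPKM in zygote M and 31.7, 38.9 and 14.3 FPKM in two-cell M (log2 fold change 2.63 ± 0.69 SE, adjusted p = 0.002298). Mad2l1bp, the p31comet protein that switches off the spindle checkpoint, was at 16.4, 15.4 and 14.3 FPKM in zygote M and 213, 133 and 224 FPKM in two-cell M (log2 fold change 3.59 ± 0.93 SE, adjusted p = 0.00209). Members of this list thus changed in both directions. Kinetochore and motor genes rose in 3 and fell in 10 (25%) of 40 cases (median -0.96), with 1 higher call without zygote M A. Cenpa, the histone H3 variant that marks centromeres, was at 10.8, 6.96 and 9.52 FPKM in zygote M and 47.1, 33.7 and 19.9 FPKM in two-cell M (log2 fold change 1.82 ± 0.54 SE, adjusted p = 0.00653). Cenpx, a centromere protein, was at 81.7, 111 and 74.2 FPKM in zygote M and 12.97, 6.19 and 14.01 FPKM in two-cell M (log2 fold change -3.08 ± 0.98 SE, adjusted p = 0.0107). Tubulin genes fell in 8 of 19 cases (42.1%), 5 of them when two-cell M A was left out, and rose in 1, Tbcc, whose call was lost without any 1 of the 6 libraries (median -1.54). Tubg2, a gamma-tubulin, was at 200.1, 216 and 226 FPKM in zygote M and 29.9, 26.4 and 162 FPKM in two-cell M (log2 fold change -2.08 ± 0.47 SE, adjusted p = 5.69e-04). Replication genes fell in 10 (24.4%) and rose in 2 of 41 (median -1.46, 6 lower calls without zygote M C). Gins2, of the replicative helicase, was at 12.5, 14.3 and 10.9 FPKM in zygote M and 1.37, 0.0396 and 0.0522 FPKM in two-cell M (log2 fold change -6.46 ± 1.33 SE, adjusted p = 2.32e-04). The medians of the cyclin, checkpoint, kinetochore and replication lists turned positive under quantile normalization (0.18, 0.54, 1.27 and 0.51) and centring (0.25, 0.14, 0.61 and 0.11), and that of tubulin under centring alone (0.04).

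Histone variants rose in 5 and fell in 5 of 19 cases (26.3% each, median 0.34, 3 higher without two-cell M C). Quantile normalization gave 9 higher and 5 lower (median 1.28), and centring 10 and 3 (median 1.92). H2afz, the H2A.Z histone of active promoters, was at 17.2, 29.3 and 15.7 FPKM in zygote M and 155, 268 and 254 FPKM in two-cell M (log2 fold change 3.46 ± 0.54 SE, adjusted p = 6.62e-06). H2afj was at 2.49, 9.598 and 6.56 FPKM in zygote M and 31.5, 42.6 and 65.3 FPKM in two-cell M (log2 fold change 3.04 ± 0.56 SE, adjusted p = 6.05e-05). Asf1b, a chaperone of H3 and H4, was at 62.2, 46.1 and 66.9 FPKM in zygote M and 3.17, 2.23 and 9.97 FPKM in two-cell M (log2 fold change -3.80 ± 0.91 SE, adjusted p = 0.00103). Clustered histone genes rose in 4 and fell in 3 of 37 (median 0.42, 2 higher without two-cell M B and 5 lower without two-cell M C), and their near-identical copies make single values uncertain. The median turned to -0.07 without zygote M C and -0.32 without two-cell M C, against 1.26 without two-cell M B, and quantile normalization and centring each gave 9 higher calls. Hist1h2ap, a clustered H2A gene outside the list and named for its place among the 20 most abundant rows of two-cell M, was at 25.8, 53.3 and 20.003 FPKM in zygote M and 2559, 3174 and 3428 FPKM in two-cell M (log2 fold change 6.65 ± 0.53 SE, adjusted p = 9.18e-11). The groups lay far apart. Of the named genes described here that fell, centring each library on its median ended the calls of Arf5, Cenpx, Cox8a, Ddit4, Gdf9, Hsf1, Khdc3, Klf17, Mrpl18, Ooep, Phf5a, Plk1 and Tubg2.

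Called protein-coding genes were ranked if the groups did not overlap, the higher averaged at least 10 FPKM and the lower left the floor. Among these, the largest rises were those of Fam212a, Rpp25, B020004C17Rik and Riox1. Fam212a was at 0.01, 0.01 and 0.0589 FPKM in zygote M and 68.2, 85.4 and 65.8 FPKM in two-cell M. Riox1, a nucleolar histone demethylase and ribosome oxygenase, was at 0.01, 0.01 and 0.0583 FPKM in zygote M and 63.2, 45.2 and 29.4 FPKM in two-cell M. Mcl1, an anti-apoptotic Bcl2 relative with a short-lived protein, was at 0.0208, 0.01 and 0.01 FPKM in zygote M and 16.6, 23.3 and 5.897 FPKM in two-cell M (log2 fold change 10.01 ± 1.51 SE, adjusted p = 4.66e-06), so that one member of the Bcl2 family rose where Bcl2l10 fell. Tnfrsf12a and the tetraspanin Cd63 also rose from below 0.1 FPKM, to 45.9, 30.6 and 21.4 FPKM and 19.3, 18.3 and 27.8 FPKM. The largest falls included Psrc1, a microtubule-binding protein of the spindle, at 57.6, 60.8 and 66.7 FPKM in zygote M and 0.01, 0.0258 and 0.01 FPKM in two-cell M. Hsd3b7, an enzyme of bile acid synthesis, was at 84.2, 119 and 83.3 FPKM in zygote M and 0.0422, 0.0959 and 0.0381 FPKM in two-cell M. Nfil3, a bZIP repressor, was at 49.3, 33.5 and 64.8 FPKM in zygote M and 0.0211, 0.02001 and 0.0879 FPKM in two-cell M. These genes were close to the floor in every two-cell M library.

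Many transcripts were present in one M-phase alone. At 1 FPKM or more in every two-cell M library and at 0.1 FPKM or less in every zygote M library were 192 genes, 125 of them protein coding, and 399 genes showed the reverse, 281 of them protein coding. Of the 192, 108 had too low a geometric mean over the series to be tested. Of the same 192, 141 were at 0.1 FPKM or less in every interphase zygote library, and 38 were at 1 FPKM or more in every interphase two-cell library. Of the 399, 332 were at 1 FPKM or more in every interphase zygote library and 155 in every interphase two-cell library. Named after their values were seen, the list members gained in this sense were Rpl6, Rpl23, Rpl23a, Rpl24, Rpl38, Rps3a1 and Rps27a among ribosomal proteins, Nop16, Nop2 and Nop9 in ribosome biogenesis, Pabpc1, Sf3b6, Timm22 and Tomm20, and the embryonic genes Obox6, Obox8, Crxos, Gm5662, Gm4027 and Spz1. Lost were Rln3, Nlrp4g, Lhx8 and Pan2 of the maternal lists, Aurkb and Fbxo43 of the cell cycle, Obox7, Zfp281 and Elf3 among transcription factors, and Sdha, Mrps27, Trp53 and Timm21. With the group of the lower level at the floor in every library, 35 protein-coding genes were called higher and 324 lower. These counts do not compare the directions, since of the 399 lost genes only 11 went untested for their low geometric mean, against 108 of the 192 gained. Guca1a, at 29.3, 33.9 and 31.1 FPKM, led the first and Nat14, at 19.2, 17.3 and 14.7 FPKM in zygote M, the second.

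The same comparison in the non-polysome fraction asked whether these changes belonged to polysomes. In that fraction 1164 genes rose (14.6%) and 3426 fell (43%), with a median of -2.37. With libraries centred on their median the balance turned, with 2964 called higher and 907 lower. The compared groups alone gave 750 higher and 2019 lower. Calls shared with polysomes are given for the values as reported. Of the polysome calls, 786 higher ones (83.4%, or 67.5% of the non-polysome ones) and 2448 lower ones (77.1%, or 71.5%) were shared, and 5 and 7 were called in opposite directions. Across genes the changes of both fractions correlated with r = 0.787, a description over genes that are not independent replicates and that share the embryos of a stage. Large-subunit ribosomal protein genes rose in 43 of 48 cases (median 6.09) and small-subunit genes in 33 of 35 (median 6.74), ribosome biogenesis genes in 33 of 65 (median 2.78), and maternal regulators fell in 24 of 37 (median -3.82). Rpl41 was at 7.45, 30.9 and 8.43 FPKM in non-polysome zygote M and at 3019, 3238 and 2433 FPKM in non-polysome two-cell M. Mt1 was at 0.623, 0.584 and 0.383 FPKM and 971, 1101 and 1064 FPKM there, and Bcl2l10 at 4051, 4350.3 and 3913 FPKM and 16.8, 23.1 and 98.5 FPKM. The direction in these 3 genes was that of polysomes.

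The difference between the fractions was tested as an interaction, the polysome change minus the non-polysome change. It was higher for 233 genes (2.92%) and lower for 150 (1.88%), 4.81% in all, with 1435 at an unadjusted p under 0.05 and a median of 0.11. Of the genes that rose in polysomes 10 had a higher interaction, and of those that fell 56 had a lower one. Of the ribosomal protein genes, 7 large-subunit and 7 small-subunit members had a lower interaction and 0 a higher one (medians -1.83 and -1.94), so that where the fractions differed by the test, the rise was larger outside polysomes. Of the oocyte-secreted genes 4 of 14 had a higher interaction (median 1.23) and 0 a lower one. Bmp15 had an interaction of 4.23 ± 0.95 SE (adjusted p = 0.00685), with a log2 fold change of -8.47 in the non-polysome fraction against -4.24 in polysomes. Arf5, a small GTPase of vesicle traffic, was at 101, 132 and 66.9 FPKM and 0.0907, 0.126 and 0.0484 FPKM in the non-polysome fraction, and in polysomes at 77.3, 139 and 59.1 FPKM in zygote M and 20.9, 10.98 and 49.1 FPKM in two-cell M. Its interaction was 8.26 ± 0.65 SE (adjusted p = 2.11e-09). Crip2 and Dusp12 behaved alike, with log2 fold changes of -9.92 and -9.38 outside polysomes and -2.14 and -2.86 inside. Centring each library gave 1600 interaction calls in place of 383 and quantile normalization 169, so this count depends on the scaling. With the compared groups alone it was 116. The fit did not pair the fractions, and with the gradient (libraries of a stage that share a letter) as a block it gave 464 calls.

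Interphase embryos, untreated, gave the change between the same cycles outside mitosis, from 3 zygote and 3 two-cell polysome libraries that the M-phase comparison does not share. There 490 genes rose (6.15%) and 782 fell (9.82%), with a median of -0.98. The 1272 calls became 1990 under quantile normalization, 2269 with the 18 polysome libraries and 2695 with the compared groups alone. Calls shared with the M-phases are given for the fit as reported. Of the M-phase calls 305 higher ones (32.3%, or 62.2% of the interphase ones) and 381 lower ones (12%, or 48.7%) were shared, and 34 and 85 were called in opposite directions. Across genes r was 0.345. Drug treatment differs between M-phase and interphase embryos as cell cycle phase does, and the 2 cannot be told apart.

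The test of the difference, the M-phase change minus the interphase change, was higher for 547 genes (6.87%) and lower for 1342 (16.8%), with a median of -0.86. Of the genes that rose between the M-phases 359 passed it as higher, and of those that fell 1257 passed it as lower. Ribosomal protein genes rose between the interphases in 9 and fell in 3 of 48 large-subunit cases (median 0.52) and rose in 14 of 35 small-subunit cases (median 2.18), and 25 and 21 of them had a higher difference. Ribosome biogenesis genes had 5 higher and 9 lower between the interphases (median -1.79) and 25 of 65 with a higher difference, 0 with a lower one. Rps29 had log2 fold changes of 2.84 between the interphases and 7.57 between the M-phases, a difference of 4.72 ± 0.78 SE (adjusted p = 6.24e-05). Mt1 and Rpp25 rose in both comparisons, by 9.96 and 10.74 between the interphases, and their differences were not called (adjusted p = 0.592 and 0.798). Nip7 also rose in both, by 2.47 and 2.14.

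**Figure D4:**
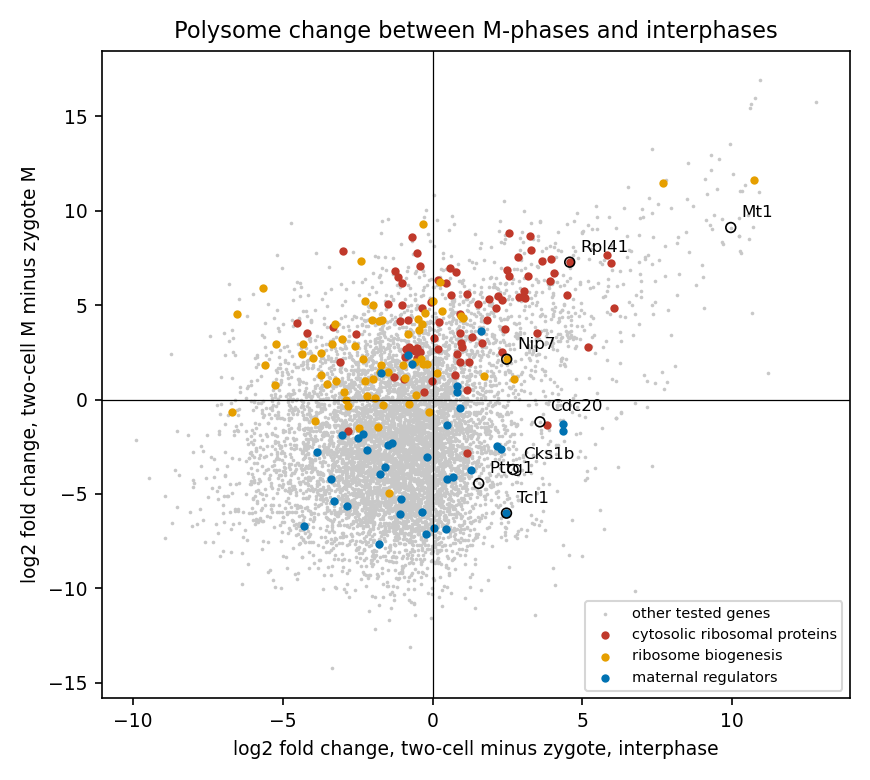
Log2 fold change in polysomes of each tested gene between the interphases (two-cell minus zygote, x axis) and between the M-phases (two-cell M minus zygote M, y axis), with 3 sets of lists in colour and 7 genes circled. Mt1 and Rpl41 rose in both, while Pttg1, Tcl1, Cks1b and Cdc20 lie to the right of 0 and below it; the fall of Cdc20 turned to 0.39 with libraries centred.

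Cks1b, Pttg1 and Tcl1 rose between the interphases and fell between the M-phases. Cks1b was at 22.4, 17.7 and 25.3 FPKM in interphase zygotes and 145, 132 and 139 FPKM in interphase two-cell embryos, a rise of 2.69 (adjusted p = 4.69e-06), against its fall between the M-phases. The difference was -6.39 ± 0.51 SE (adjusted p = 5.26e-10). Pttg1 was at 259, 105 and 232 FPKM and 495, 754 and 415 FPKM (difference -5.99 ± 0.52 SE, adjusted p = 2.12e-09). For these genes zygote M stood above both interphases and two-cell M below interphase two-cell embryos. Tcl1 was at 279, 226 and 248 FPKM in interphase zygotes and 1285, 1401 and 1468 FPKM in interphase two-cell embryos, and its difference was -8.49 ± 0.80 SE (adjusted p = 8.54e-09). Bcl2l10 was at 379.6, 393 and 433 FPKM and 507, 621 and 507 FPKM, with no call between the interphases (adjusted p = 0.674) and a difference of -7.27 ± 0.82 SE (adjusted p = 1.79e-07). Of the maternal regulators 15 of 37 had a lower difference and 0 a higher one.

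Over the 6 stages with polysome libraries, the summed FPKM of each list placed the 2 mitoses (mean of 3 libraries ± SD). Large-subunit ribosomal protein genes summed to 510.2 ± 239.9 FPKM in GV oocytes, 964 ± 21.9 in MII oocytes, 204 ± 19.04 in zygotes, 126 ± 21.4 in zygote M, 457 ± 127 in two-cell embryos and 2689 ± 319.8 in two-cell M. Two-cell M thus held the highest large-subunit sum of the 6 stages and zygote M the lowest. The small-subunit sum was also highest in two-cell M, but lowest in zygotes, at 136 ± 13.1 FPKM against 167 ± 45.1 in zygote M. Maternal regulators summed to 1655 ± 69.7 FPKM in zygotes, 7477 ± 566 in zygote M, 4112 ± 328 in two-cell embryos and 795 ± 457 in two-cell M, and zygote M lay close to the 7509 ± 1528 of MII oocytes. Without Bcl2l10, Tcl1 and Omt2b the list summed to 941 FPKM in zygotes, 1008 in zygote M, 931 in two-cell embryos and 242 in two-cell M. Its median member was at 9.04 FPKM in zygotes and 7.29 in zygote M. Oocyte-secreted and zona genes went down at each stage in this order, from 1947 ± 192 FPKM in GV oocytes through 565 ± 99.997 in zygote M to 81.8 ± 62.2 in two-cell M. Cyclin and anaphase-promoting complex genes summed to 554 ± 93.7 FPKM in zygotes and 3489 ± 549 in zygote M, but to 957 ± 224 in two-cell embryos and 393 ± 113 in two-cell M. Stress genes reached 1445 ± 203 FPKM in two-cell M, above the 617 ± 111 of interphase two-cell embryos. Mt1 and Mt2 held 76.9% and 55.8% of these sums, and the other members together 334 and 273 FPKM. Sums rest on few members, as the 3 most abundant held 50.9% (zygote M) and 67.2% (two-cell M) of the large-subunit sum, 69.2 and 71.4% of the oocyte-secreted one and 90.1 and 58.9% of the cyclin one. They also carry the difference in library make-up given above.

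**Figure D5:**
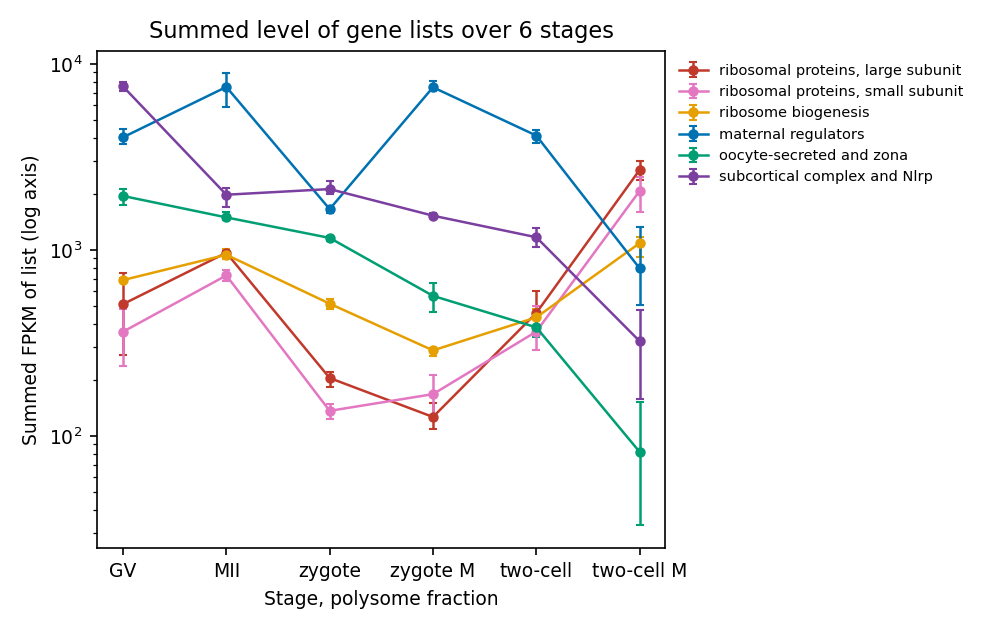
Summed FPKM (y, log axis) of 6 gene lists in the polysome fraction at 6 stages (x axis), as the mean of 3 libraries with bars from the lowest to the highest. Both ribosomal protein lists are highest in two-cell M (2689 and 2073 FPKM), where the 3 maternal lists are at their lowest.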

How the data were processed

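RNA of pooled gradient fractions was amplified with SMART-seq v4, made into Nextera XT libraries and sequenced as 150-base paired ends. Per the submitters' processing notes, Trim Galore 0.4.1, STAR 2.5.3a, Partek and GRCm38 were used. The authors deposited FPKM for 23125 genes in 36 libraries of 12 groups, 3 each, with a lowest value of 0.01; 2 of the 38 samples were not analysed here, and 0 columns of values were left unused. How reads shared by copies were counted is not given in the sources used here.

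Log2 FPKM of the 7967 genes whose geometric mean reached 0.1 FPKM were fitted in limma 3.58.1 (R 4.3.3) with 12 group means and a mean-variance trend, which pools the spread over all 36 libraries (two-sided tests, Benjamini-Hochberg adjustment over all genes tested). Simulated data with the spread of these libraries held planted changes in a small part of the genes and no other difference between the 2 groups. The fit missed most of the planted changes and called none of them in the wrong direction. With 51.7% of genes called in the data, this recovery does not measure that of the reported fit. Counting intervals were not computed, since the deposited values hold no counts. Fragments were estimated from whole multiples in single-exon genes (66.2 to 70.0% whole within 0.05).

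The gene lists and tests were chosen with earlier results of these data known. Named genes were (a) the 12 largest rises and 12 largest falls among called, non-overlapping protein-coding genes whose higher group averaged 10 FPKM or more, with at least 1 FPKM in each of its libraries and not all of the other at the floor, (b) the 4 most abundant per direction with the other group at the floor, (c) the 3 most abundant called members per list and direction, (d) genes taken from the study's text, where its Elob1 had been read as Elob, and (e) 6 per interaction. Others are said to be named after their values were seen, or stand for a marker or a list's full count. Alternatives were 0.1 or 1 FPKM added, other filters, quantile, centred and equal-sum scaling, fits on fewer libraries, a replicate block and leaving out each library. Sequences came from RefSeq (GRCm38.p6), and gene coordinates from the deposited table.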

Additional observations from a re-analysis of the deposited data

Results flagged for a closer look

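The change from zygote M to two-cell M was tested for a difference between the polysome and the non-polysome fraction, and was higher in polysomes for 233 genes and lower for 150. The 6 protein-coding genes with the smallest adjusted p at a mean of at least 10 FPKM were Arf5, with a polysome minus non-polysome difference of 8.26 on the log2 scale, Hcfc1r1 with 9.43, Dusp12 with 6.52, Crip2 with 7.77, Cenps with 6.93 and Cdc42se1 with 7.13. All 6 had lower levels in non-polysome two-cell M, and in polysomes Cenps was not called.

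The change was also tested for a difference between the M-phases and the interphases, and was higher between the M-phases for 547 genes and lower for 1342. The 6 genes chosen in the same way were Dhrs1, with an M-phase minus interphase difference of -12.45, Tcl1b1 with -9.01, Hsd3b7 with -10.15, F8a with -11.53, Pdlim2 with -9.40 and Cks1b with -6.39. Of these, Tcl1b1 and Cks1b were called higher between the interphases, with log2 fold changes of 4.16 and 2.69. Groups of 3 libraries were not searched for single libraries far from the others.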

How the results depend on the processing

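The 2 groups' letters were not taken to pair libraries, since same-letter deviations correlated with r of -0.0347, 0.028 and 0.0337. A fit with the replicate letter as a block gave 954 higher and 3151 lower genes in polysomes, against 943 and 3177, and 1164 and 3393 in the non-polysome fraction; it gave 361 calls for the difference between fractions, 1700 for M-phase against interphase and 1033 between the interphases. Polysome and non-polysome libraries of 1 stage and letter had deviations correlated with r of 0.00698 to 0.167, and their consensus correlation as a block was 0.0638. Leaving out 1 library gave 813 to 880 higher and 2708 to 3180 lower genes in polysomes.

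Higher calls in polysomes numbered 1997 with no minimum level, 1877 under quantile normalization and 1513 with libraries centred, and lower calls 2024 with 1 FPKM added, 1791 under a filter at 1 FPKM, 2081 under quantile normalization and 1798 when centred. Non-polysome higher calls were 1826 with no minimum, 2964 when centred and 750 with the compared groups alone, and lower calls 2142 with 1 FPKM added, 2009 under that filter, 1890 under quantile normalization, 907 when centred and 2019 with the compared groups alone. The difference between fractions gave 169 calls under quantile normalization, 1600 when centred and 116 with the compared groups alone, M-phase against interphase 2957 with the 18 polysome libraries, and the interphases 2427 with no minimum, 1990 under quantile normalization, 2695 with the compared groups alone and 2269 with the 18 polysome libraries. Causes were not tested. Centring reversed Omt2b (0.30), Rps27l (0.23), Psmb6 (0.19), Atp5b (0.49), Cox5a (0.29), Cdc20 (0.39), Tubg1 (0.036) and Cenps (0.70), and leaving out two-cell M B reversed Mos (0.20, and -2.89 without two-cell M C). Of 166 named genes called, 128 kept their call without each library in turn. Two-cell M had fewer fragments, so low genes are less certain there.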
